A study of Mus musculus with 12 samples.

Results

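Voltage-gated and pacemaker ion channel genes were followed in cardiomyocytes that had been differentiated in culture from mouse embryonic stem cells of the CM7/1 line. The members were every gene of the deposited expression table whose symbol begins with Kcn (potassium channels), Cacn (calcium channels), Scn (sodium channels) or Hcn (pacemaker channels), followed by a numbered family name, and that had a value in at least 1 of 4 libraries. The epithelial sodium channel genes (Scnn) and Scnm genes were left out. This gave 101 genes of the 15371 with a value: 64 potassium, 21 calcium, 12 sodium and 4 Hcn genes. Another 34 genes that match by name were blank in all 4 libraries. RNA was sequenced from 4 groups with 1 library each. The Hey1 line carried an inducible Hey1 gene and the Hey2 line an inducible Hey2 gene, both transcriptional repressors that act downstream of Notch. Each line was left uninduced as the control or was given 1000 ng/ml doxycycline for 48 h. No library of doxycycline-treated cells without a transgene was analysed here, so doxycycline and transgene cannot be told apart. The labels give no promoter, clone or time of differentiation for the lines. Hey1 itself was at 0.735, 8.59, 1.18 and 0.481 RPKM (reads per kilobase of gene, scaled to library depth) in the uninduced Hey1 line, the induced Hey1 line, the uninduced Hey2 line and the induced Hey2 line. Hey2 was at 0.694 and 0.895 RPKM in the Hey1 line, blank in the uninduced Hey2 line and at 6.59 RPKM in the induced Hey2 line. All later sets of 4 values keep that order.

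As background, the beat of a heart cell is an ordered sequence of ion currents. Hcn channels open on hyperpolarisation and carry the depolarising pacemaker current, T-type and L-type calcium channels carry the next part of the pacemaker depolarisation and the calcium entry that starts contraction, and voltage-gated sodium channels give the fast upstroke of working myocytes. Potassium channels repolarise the cell and hold its resting potential. Each pore is assembled with auxiliary subunits that set its trafficking and gating.

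The depth behind each value was recovered from the steps of the values. The scaling depths were 7.4, 7.5, 5.75 and 10.375 M reads, and 12311, 12198, 14177 and 15095 genes were listed. A blank cell was taken as a gene with fewer than 10 reads in the Hey1 line or fewer than 5 in the Hey2 line, which is a floor and not a zero. The floor was inferred from the recovered read numbers. At their smallest recovered length, 30, 40, 12 and 2 of the genes listed in all 4 libraries fell under it. With 1 library per group there is no replicate check, and no p-value is given. Ratios of RPKM carry an exact 95% interval (conditional binomial) and single levels an exact Poisson interval, which cover counting error only. Spread between cultures or between libraries is not in them. Copies made by PCR are not independent molecules, so even the counting error can be larger. A member was called higher or lower between lines at a ratio of at least 2-fold with an interval that excludes 1, and in an induction at 1.5-fold under the same condition.

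Hcn4, Kcnh2 and Kcnj5 were lower in the Hey2 line, and Kcnk5 and Kcnq5 were higher there. Promoters are shown for these 5, which were picked from the members named below and do not stand for the other members of either direction. Each is the RefSeq window of GRCm38.p6 from 250 bases before to 50 bases after an annotated start, written 5′ to 3′ on the gene's strand. The windows are Hcn4 at chr9:58822699-58822998 (+), Kcnh2 at chr5:24329542-24329841 (-), Kcnj5 at chr9:32344295-32344594 (-), Kcnk5 at chr14:20181733-20182032 (-) and Kcnq5 at chr1:21961893-21962192 (-). Capitals mark the words CACGTG and CACGCG on either strand, which are bound by basic helix-loop-helix repressors of the Hey and Hes families. In Kcnq5 a match on each strand overlaps the other. A second Kcnq5 window, at chr1:21962601-21962900 (-), is not printed. It held 0 matches of either word.
Hcn4: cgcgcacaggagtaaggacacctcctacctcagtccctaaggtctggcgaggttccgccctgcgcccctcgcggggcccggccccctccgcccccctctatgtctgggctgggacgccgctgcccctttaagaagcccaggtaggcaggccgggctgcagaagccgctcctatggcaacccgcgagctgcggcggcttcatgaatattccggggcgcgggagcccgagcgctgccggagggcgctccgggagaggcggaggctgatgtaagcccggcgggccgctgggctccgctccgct
Kcnh2: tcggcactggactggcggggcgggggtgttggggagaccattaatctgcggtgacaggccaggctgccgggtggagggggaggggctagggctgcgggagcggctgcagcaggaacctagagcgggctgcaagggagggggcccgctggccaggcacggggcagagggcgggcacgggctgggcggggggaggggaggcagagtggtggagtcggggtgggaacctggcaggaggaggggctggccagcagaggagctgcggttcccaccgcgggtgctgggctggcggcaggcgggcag
Kcnj5: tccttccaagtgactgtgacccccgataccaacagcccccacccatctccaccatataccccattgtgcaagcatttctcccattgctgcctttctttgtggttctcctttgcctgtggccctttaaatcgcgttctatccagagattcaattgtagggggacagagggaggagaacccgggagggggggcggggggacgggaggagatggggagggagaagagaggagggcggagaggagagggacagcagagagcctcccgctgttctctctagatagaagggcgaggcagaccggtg
Kcnk5: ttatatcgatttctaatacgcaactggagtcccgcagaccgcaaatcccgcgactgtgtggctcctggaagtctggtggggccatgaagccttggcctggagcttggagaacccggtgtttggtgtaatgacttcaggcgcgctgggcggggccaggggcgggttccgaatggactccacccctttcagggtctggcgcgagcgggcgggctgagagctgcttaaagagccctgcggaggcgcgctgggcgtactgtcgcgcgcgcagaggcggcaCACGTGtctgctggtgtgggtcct
Kcnq5: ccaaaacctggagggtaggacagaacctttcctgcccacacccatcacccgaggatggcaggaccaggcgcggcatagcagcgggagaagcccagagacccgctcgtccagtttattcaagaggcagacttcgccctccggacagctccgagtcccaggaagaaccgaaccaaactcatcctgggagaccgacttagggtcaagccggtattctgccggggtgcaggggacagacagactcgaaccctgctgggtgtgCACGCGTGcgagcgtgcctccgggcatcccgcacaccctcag

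RefSeq windows were found for 69 of the 101 members (99 windows). Kcng2 and Kcnj11 had no entry. CACGTG was in 4.04% of the members' windows and in 7.15% of all 32851 windows, and CACGCG was in 9.09% against 9.27%. Of the 10 windows of genes lower in the Hey2 line under both conditions, 0 held CACGTG and 1 (Cacna2d2, not printed) held CACGCG. Of the 6 windows of genes higher there under both conditions, 1 held CACGTG and 1 held CACGCG. These are the printed Kcnk5 and Kcnq5 windows, and the windows of Kcnj3 and Kcnip4, also higher, held neither word. The Hcn4 and Kcnh2 windows were rich in G and C, at 71.7% and 74.3%, against a median of 52.7% over all windows. A match is a description of these letters and not a binding site.

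The members were low-level transcripts, and different channels led in the lines. Their median listed level was 1.90, 1.96, 1.13 and 0.535 RPKM, against 4.63, 4.39, 4.53 and 4.07 RPKM for all genes. The members' medians are over 55, 51, 72 and 94 listed members. These sets differ with the floor and depth of each library, so the medians do not measure a difference between libraries. In the uninduced Hey1 line the highest members were Kcnh2, Hcn4, Kcng2, Cacnb2 and Kcnj5, at 34.7, 31.2, 28.0, 27.9 and 25.3 RPKM. In the uninduced Hey2 line they were Cacnb2, Kcnk1, Kcnj3, Cacng7 and Kcnq5, at 24.8, 14.0, 9.43, 7.35 and 7.08 RPKM. Cacnb2, the main auxiliary beta subunit of cardiac calcium channels, was thus the 1 gene in both of these sets. Only 18 members reached 5 RPKM in any library, and 50 stayed under 1 RPKM in every library. Of the 32 channel genes listed as known in heart cells, 28 had a value, and Kcna5, Kcnj2, Kcne2 and Scn4b were blank throughout.

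Summed over the members, channel RNA was at 294.8, 307.4, 149.3 and 146.2 RPKM. The potassium genes made up 48.6%, 48.6%, 54.1% and 54.1% of it and the calcium genes 32.8%, 32.2%, 39.98% and 39.6%. The sodium genes made up 6.62%, 6.96%, 3.44% and 4.13%, and the Hcn genes 12%, 12.3%, 2.44% and 2.10%. In each class the sums of both Hey1-line libraries were above those of both Hey2-line libraries.

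**Figure D1:**
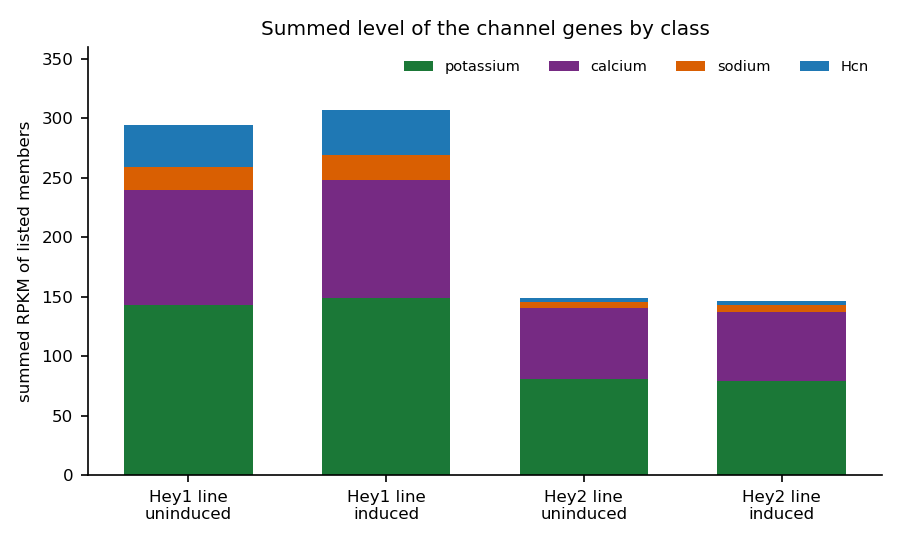
Summed RPKM of the listed members in each library (bars from 0, 1 library each), stacked by potassium, calcium, sodium and Hcn class. The Hey1-line bars stand at 294.8 and 307.4 RPKM and the Hey2-line bars at 149.3 and 146.2 RPKM, with a Hcn segment of 35.4 and 37.8 against 3.64 and 3.06 RPKM.

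Among members listed in both libraries, those lower in the Hey2 line outnumbered those higher there. Between the uninduced lines, of the 47 members listed in both libraries, 17 were lower and 8 higher in the Hey2 line by the 2-fold rule, and 22 were neither. Over all genes, 16.1% were lower and 26.1% higher. Between the induced lines, 21 of 48 members were lower and 5 higher, against 16.6% and 28.3% of all genes. These counts leave out members listed in 1 library only. Uninduced, 25 were listed only in the Hey2-line library and 8 only in the Hey1-line library, and induced 46 and 3. With blanks at the floor, 23 of 80 members were lower and 12 higher uninduced, against 14.3% and 26% of all genes. Induced, 24 of 97 were lower and 11 higher, against 13.8% and 27.4%. On the heart channel list alone, 13 of 22 comparable genes were lower and 3 higher uninduced, and 16 of 23 lower and 1 higher induced. The median log2 ratio of the members was -0.53 uninduced and -0.72 induced, and that of all genes 0.25 and 0.29. Scaling the libraries by median ratios moves every line ratio by -0.22 (uninduced) or -0.31 (induced) on the log2 scale. The induced and uninduced comparisons use different libraries. Of the 43 members listed in all 4, 15 (34.9%) were lower in the Hey2 line in both and 4 (9.30%) higher in both. The same shares over all genes were 13.6% and 22.7%. With either rescaling, the uninduced split of 17 lower and 8 higher became 18 and 5, and the shares of all genes became 20.1% lower and 20.5% higher (median ratio) or 19.5% and 21.3% (upper quartile).

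By class, the median log2 ratio of the uninduced lines was -0.24 for 26 potassium genes, -0.61 for 14 calcium genes, -0.26 for 4 sodium genes and -1.80 for 3 Hcn genes. The medians of the induced lines were -0.77, -0.66, -0.55 and -2.22 for 29, 13, 3 and 3 genes. The sodium and Hcn medians rest on few genes, and the differences between classes were not tested.

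The cardiomyocyte markers were lower in the Hey2 line without exception, whereas the channel members went both ways. All 10 of the list (such as Tnnt2, Myh6, Actc1 and Myl7) were listed in every library, and their summed level was 18850, 19580, 1180 and 1221 RPKM. All 10 were lower in the Hey2 line in both comparisons, with a median log2 ratio of -3.65 uninduced and -3.71 induced. Of the 9 pluripotency markers with values, 7 were higher in the uninduced and 8 in the induced Hey2 line, with sums of 37.3, 29.2, 312.2 and 318.3 RPKM. Of 12 neuronal markers, 5, 4, 8 and 8 were listed, with sums of 21.3, 23.0, 49.3 and 51.1 RPKM. Of the 5 compared uninduced, 3 were higher and 1 lower in the Hey2 line: Stmn2 was at 1.42, 1.05, 32.8 and 33.8 RPKM, and Tubb3 went the other way at 16.6, 18.7, 4.14 and 4.14 RPKM. Map2, Elavl3, Dcx and Rbfox3 had no value. Only 9 of the 12 neuronal symbols were found among the deposited rows, so a missing symbol does not show a missing transcript. Endothelial marker sums were 2.69, 2.67, 7.31 and 7.66 RPKM, and fibroblast marker sums 36.8, 33.1, 59.4 and 75.8 RPKM. Smooth muscle sums were 324.9, 350.8, 154.9 and 186.9 RPKM, with 2 of 6 markers lower and 0 higher in the Hey2 line in each comparison. Acta2 was at 217.0, 253.2, 45.6 and 49.5 RPKM, and Tagln at 71.2, 60.7, 82.5 and 110.7 RPKM. Skeletal muscle sums were 43.3, 40.5, 16.0 and 23.5 RPKM, with Myod1, Myog and Myf5 blank. Ckm, which heart muscle also expresses, was at 32.3, 30.6, 0.860 and 1.09 RPKM, and Acta1 went the other way at 9.20, 6.11, 14.2 and 21.6 RPKM. The part of these cell types in the channel differences was not tested, and in bulk RNA fewer cells of a type and less RNA per cell cannot be told apart.

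**Figure D2:**
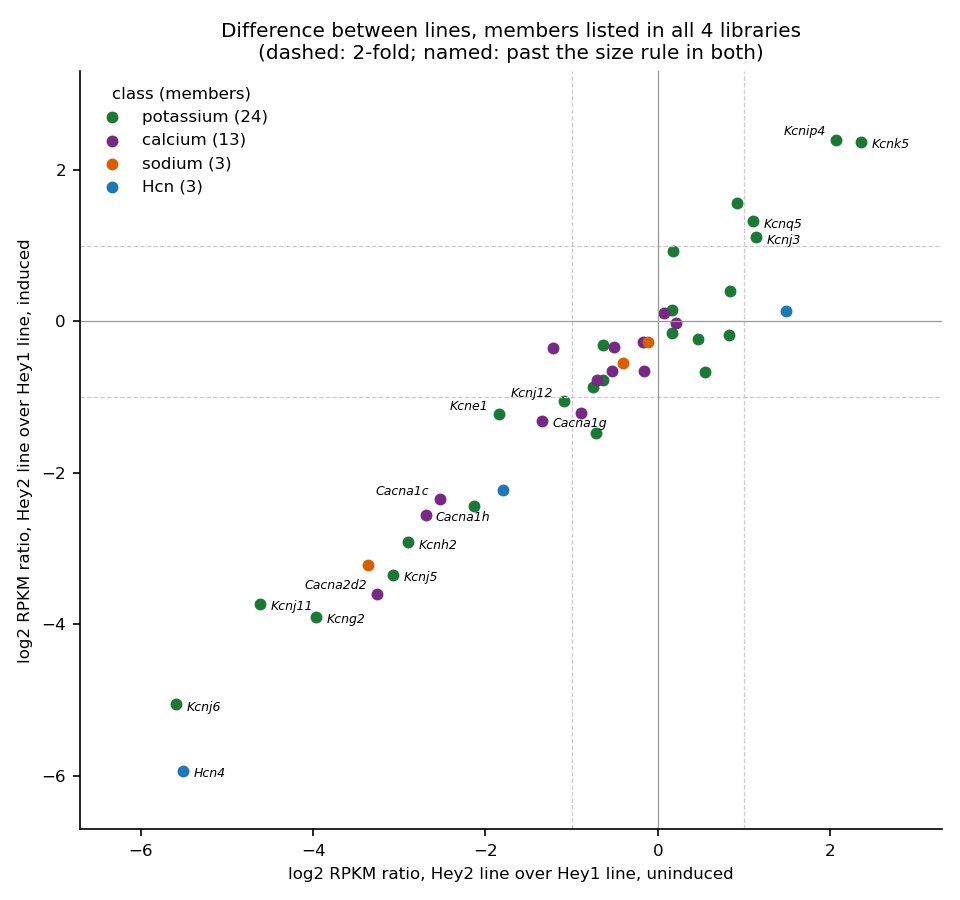
Log2 RPKM ratio of the Hey2 line over the Hey1 line for the 43 members listed in all 4 libraries, uninduced on the x axis and induced on the y axis, 1 point per gene, colored by class. Of the 15 lower and the 4 higher in both, those described in the text are named. Hcn4 and Kcnj6 lie lowest and Kcnk5 and Kcnip4 highest.

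Among the pacemaker channels, Hcn4, the main Hcn gene of the sinoatrial node, was at 31.2, 32.6, 0.687 and 0.533 RPKM (878, 928, 15 and 21 reads). Both Hey1-line libraries were far above both Hey2-line libraries. Hcn4 was 45.5-fold lower in the uninduced Hey2 line (95% interval 27.4 to 81.6) and 61.1-fold lower in the induced line (39.8 to 99.2). Hcn2, the broader isoform of heart and brain, went the other way at 0.465, 0.960, 1.31 and 1.06 RPKM. It was 2.81-fold higher in the uninduced Hey2 line (1.32 to 6.35) and within counting error of the Hey1 line when induced (1.10-fold, 0.632 to 1.95). In the Hey1 line Hcn2 was 2.06-fold higher on induction (0.966 to 4.69, on 11 and 23 reads), which is not called as deposited and is called under both rescalings. Hcn3 was blank in the Hey1 line and at 0.587 and 0.561 RPKM in the Hey2 line, on 11 and 19 reads. Hcn4 made up 88.3%, 86.2%, 18.9% and 17.4% of the Hcn RPKM, so the leading gene of the family changed with the line.

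The sodium channel genes summed to 19.5, 21.4, 5.13 and 6.04 RPKM. Several of them are best known from neurons or other tissues. Scn8a, a neuronal channel, was at 0.130 RPKM, blank, 0.578 and 0.362 RPKM, and was 4.45-fold higher in the uninduced Hey2 line. Scn7a, a sodium-sensing channel, was at 0.534, 0.636, 0.403 and 0.434 RPKM. Scn10a, known from sensory neurons, had 0.676 and 0.589 RPKM in the Hey1 line and was blank in the Hey2 line, a ratio of at least 5.28-fold and 8.30-fold against the floor.

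The L-type pore gene Cacna1c was at 8.88, 9.66, 1.54 and 1.90 RPKM, 5.79-fold lower uninduced (4.60 to 7.37) and 5.09-fold lower induced (4.32 to 6.02) in the Hey2 line. Cacna1d, the L-type pore of pacemaker cells, was at 1.26, 1.37, 0.677 and 0.594 RPKM and passed between the induced lines, 2.31-fold lower, and between the uninduced lines (1.86-fold) only after rescaling. The T-type genes were Cacna1g, at 8.85, 8.45, 3.5 and 3.39 RPKM, and Cacna1h, at 10.5, 10.1, 1.63 and 1.72 RPKM. Both were lower in the Hey2 line, Cacna1g 2.53-fold and 2.49-fold and Cacna1h 6.48-fold and 5.89-fold. Together the T-type genes held 61.9%, 58.9%, 55.3% and 54.1% of the pore-forming calcium channel RPKM. All 5 pore-forming calcium genes listed in all 4 libraries had line ratios below 1.

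Auxiliary calcium subunits did not move as a group. Cacnb2 was at 27.9, 28.8, 24.8 and 23.8 RPKM, 1.13-fold (0.975 to 1.31) and 1.21-fold (1.07 to 1.37) lower in the Hey2 line, both under the 2-fold rule, so that Cacnb2 over Cacna1c was 3.14 and 2.98 in the Hey1 line, against 16.1 and 12.5 in the Hey2 line. Cacna2d2, an alpha2delta subunit, was at 16.4, 20.7, 1.72 and 1.72 RPKM and was 9.56-fold and 12.1-fold lower in the Hey2 line. Cacna2d1, its relative, was at 5.42, 5.40, 3.34 and 3.15 RPKM, a difference under the 2-fold rule that passes between the induced lines after median-ratio scaling or upper-quartile scaling. Cacng7, a gamma subunit, went the other way at 1.63 RPKM, blank, 7.35 and 7.57 RPKM, on 10, 35 and 65 reads where it was listed. It was 4.50-fold higher in the uninduced Hey2 line (2.18 to 10.2). Cacng6 was at 1.90, 1.70, 2.0 and 1.85 RPKM, and its line ratio crosses 1 under the scaling alternatives.

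**Figure D3:**
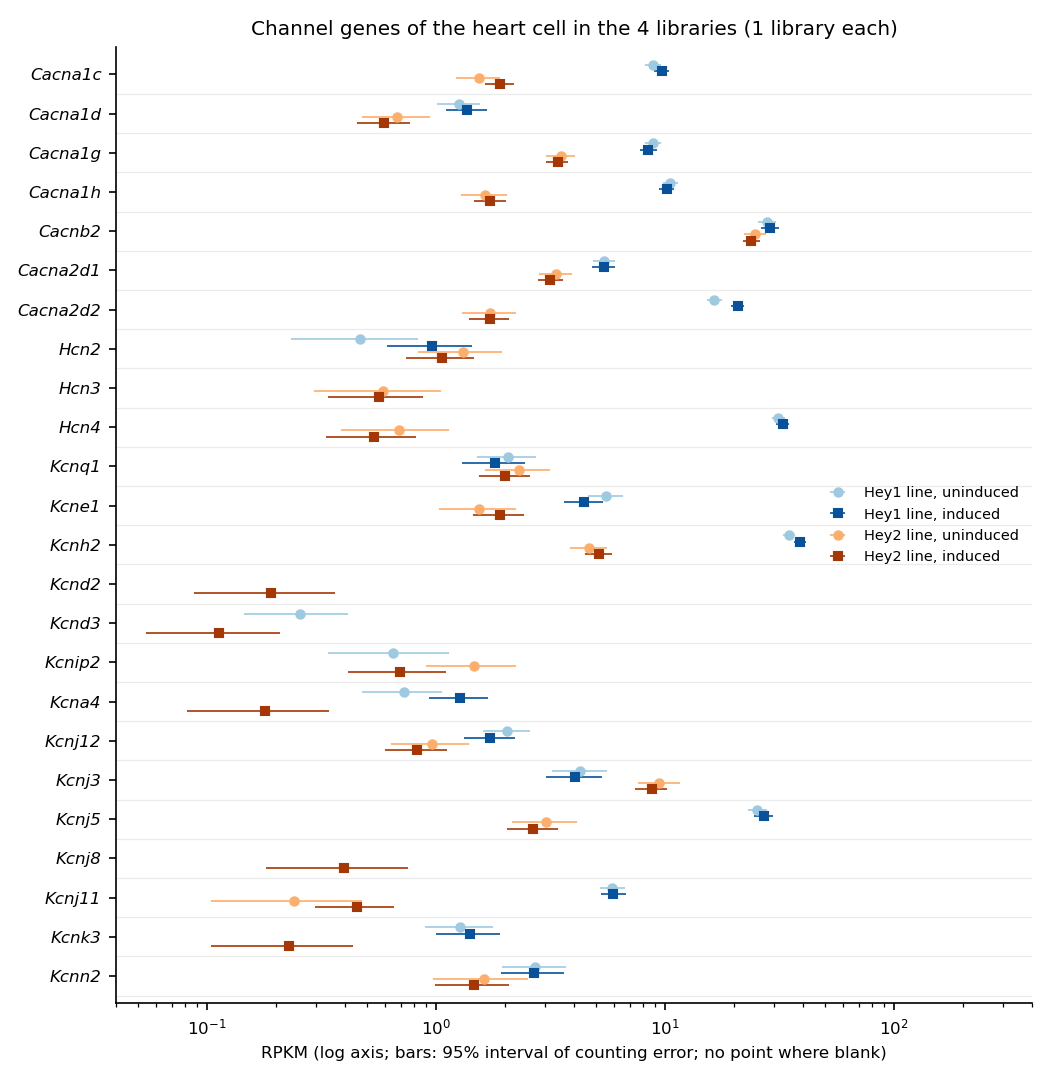
RPKM (log axis) of the heart channel genes described in the text in the 4 libraries, points with exact 95% Poisson intervals of counting error, 1 library each, no point where blank. The Hey1-line and Hey2-line points separate for Hcn4, Kcnh2 and Kcnj5 and lie together for Cacnb2 and Kcnq1.

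Kcnh2, the rapid delayed rectifier, was the highest potassium channel gene in the Hey1 line, at 34.7, 38.8, 4.66 and 5.14 RPKM. It was 7.46-fold lower in the uninduced Hey2 line (6.14 to 9.14) and 7.55-fold lower in the induced line (6.54 to 8.74). Kcnq1, the pore of the slow delayed rectifier, was at 2.05, 1.80, 2.30 and 2.0 RPKM, within counting error between the lines. The ratio of Kcnh2 to Kcnq1 was 16.9 and 21.5 in the Hey1 line, against 2.03 and 2.56 in the Hey2 line. The silent subunit gene Kcng2, which modifies other delayed rectifiers, was at 28.0, 32.3, 1.79 and 2.16 RPKM, 15.6-fold (10.8 to 23.6) and 15.0-fold (11.6 to 19.7) lower in the Hey2 line. Kcnq5, a relative of Kcnq1 known from brain and muscle, was higher in the Hey2 line at 3.29, 2.69, 7.08 and 6.72 RPKM, and this uninduced call is lost under the scaling alternatives. Kcnh6, a relative of Kcnh2, was at 0.711, 0.514, 1.34 and 1.52 RPKM and was 2.96-fold higher between the induced lines (1.51 to 6.34). Of 28 voltage-gated potassium members, 10 could be compared uninduced (4 lower, 1 higher) and 11 induced (5 lower, 2 higher). The shares of all genes were 16.1% lower and 26.1% higher uninduced, and 16.6% lower and 28.3% higher induced. The genes of the fast transient outward current were near the floor: Kcnd2 was listed only in the induced Hey2 line, at 0.191 RPKM, and Kcnd3 at 0.253 and 0.113 RPKM in the uninduced Hey1 and induced Hey2 libraries.

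Of the inward rectifiers, 4 of 5 comparable genes were lower and 1 higher in the uninduced Hey2 line, and 4 of 6 were lower and 1 higher in the induced line, against 16.1% and 16.6% of all genes lower and 26.1% and 28.3% higher. Kcnj5, a subunit of the acetylcholine-activated channel of atrial and nodal cells, was at 25.3, 26.9, 3.02 and 2.66 RPKM, 8.39-fold and 10.1-fold lower. Its partner Kcnj3 went the other way, at 4.27, 4.05, 9.43 and 8.73 RPKM, 2.21-fold (1.56 to 3.16) and 2.16-fold higher, and its call is lost when the libraries are rescaled. Kcnj5 thus held 85.6% and 86.9% of the RPKM of this pair in the Hey1 line, against 24.2% and 23.4% in the Hey2 line. Kcnj6 was at 6.16, 5.88, 0.128 and 0.177 RPKM, 48.2-fold lower (21.9 to 132.1) on 6 reads in the uninduced Hey2 line and 33.2-fold lower (19.9 to 59.9) on 15 reads in the induced line. Kcnj11, the pore of the ATP-sensitive channel, was at 5.89, 5.95, 0.241 and 0.450 RPKM, 24.5-fold and 13.2-fold lower. Kcnj12, a gene of the resting current, was at 2.05, 1.72, 0.961 and 0.829 RPKM, 2.13-fold and 2.08-fold lower. Kcnj2, the main gene of that current, was blank throughout, and Kcnj8, the vascular ATP-sensitive pore, was listed only in the induced Hey2 line at 0.397 RPKM.

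Tandem-pore-domain leak channels diverged between the lines. Kcnk1, a weakly conducting leak channel, was blank in the Hey1 line and at 14.0 and 14.4 RPKM in the Hey2 line (185 and 345 reads), at least 23.8-fold and 24.9-fold above the Hey1-line floor. Kcnk5, an acid-sensitive leak channel, was at 0.402, 0.515, 2.07 and 2.67 RPKM, 5.15-fold (2.53 to 11.5) and 5.17-fold (2.88 to 10.1) higher. Kcnk3 was at 1.28 and 1.4 RPKM in the Hey1 line, blank in the uninduced and at 0.228 RPKM in the induced Hey2 line, 6.15-fold lower between the induced lines (2.94 to 14.4). Kcnk2, a mechanosensitive leak channel, was at 4.18, 4.32, 4.68 and 3.89 RPKM and did not pass the rule. Among 45 members listed in the Hey2 line only, 29 had a highest level at or below the Hey1-line floor, so their listing alone shows no difference. Genes listed in the Hey2 line only made up 44.6% of the members and 18.1% of all genes. Kcnk1, Kcnk6, Cacna1b, Kcnq3 and Kcnab3 reached at least 2 times that floor. Of those listed in the Hey2 line only, 8 reached 1 RPKM. Besides Kcnk1, these were Kcnmb4 (2.25 and 1.53 RPKM), Kcnq3 (1.27 and 1.41), Kcnd1 (1.25 and 1.03), Kcnk6 (0.893 and 1.16), Kcnab3 (1.10 and 0.836), Kcnt2 (1.05 and 1.10) and Cacng8 (1.25 RPKM when induced, on 5 reads). Cacng8 was under its Hey1-line floor of 3.49 RPKM, and Kcnt2, Kcnmb4 and Kcnd1 reached at most 1.07, 1.67 and 1.80 times theirs. The calcium-activated channel Kcnn2 was at 2.71, 2.67, 1.61 and 1.46 RPKM and was not called as deposited, but is called lower between the induced lines after rescaling.

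The auxiliary potassium subunit Kcne1, partner of Kcnq1, was at 5.53, 4.44, 1.54 and 1.89 RPKM, 3.58-fold and 2.34-fold lower in the Hey2 line. Its ratio to Kcnq1 was 2.69, 2.46, 0.672 and 0.945. Kcnip4, a calcium-binding partner of Kcnd channels, was at 0.657, 0.432, 2.76 and 2.28 RPKM, 4.2-fold and 5.28-fold higher. Kcnip2, the heart partner of Kcnd channels, was at 0.651 RPKM, blank, 1.47 and 0.697 RPKM, and its 2.25-fold higher level in the uninduced Hey2 line (1.06 to 5.02) is lost on rescaling. The row Kcnq1ot1, which met the name rule, is a non-coding antisense RNA and not a channel. It stayed at 0.0224 to 0.0427 RPKM.

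Few members were called in the Hey1 induction. Of 50 members listed in both libraries, 2 were higher and 1 lower, against 0.764% and 4.04% of all genes. Among the higher, Kcna4, a transient outward pore, went from 0.725 to 1.27 RPKM (26 and 46 reads), a 1.75-fold difference (1.06 to 2.94). Cacnb4, a calcium channel beta subunit, went from 0.881 to 0.547 RPKM, 1.61-fold lower (1.03 to 2.55). That call is lost on rescaling, which gives 3 members higher and 0 lower, against 1.42% and 2.32% of all genes (median ratio) or 1.24% and 2.63% (upper quartile). For the 19 members with at least 100 reads in each library, ratios lay between 0.803 (Kcne1) and 1.26 (Cacna2d2). The intervals of Cacna2d2, Kcng2 and Kcnh2 excluded 1, all on the higher side. The median log2 ratio was 0.03 for the members (-0.01 with blanks at the floor) and -0.07 for all genes. By fold alone, without the interval, 3 members were at least 1.5-fold higher and 5 lower, against 1.86% and 6.81% of all genes. Among them were Hcn2 and Kcnj4, the latter at 1.44 and 0.805 RPKM (1.79-fold lower, 0.871 to 3.85). Against the floor, Kcnmb1 was at least 1.78-fold higher and Kcnd3 at least 1.62-fold lower. For both genes the recovered length had been raised to a multiple of 2 so that no read number fell under the floor. These bounds therefore rest on that floor.

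Hey2 induction gave 0 members higher and 4 lower of 68, against 1.49% and 1.91% of all genes. The potassium channel partners led. Kcnip1 went from 4.83 to 2.15 RPKM (76 and 61 reads), 2.25-fold lower (1.58 to 3.20), and Kcnip2 from 1.47 to 0.697 RPKM, 2.11-fold lower (1.07 to 4.19). The calcium beta subunit Cacnb1 went from 2.57 to 1.53 RPKM, 1.68-fold lower (1.05 to 2.65). Scn8a went from 0.578 to 0.362 RPKM, 1.60-fold lower with a lower bound of 1.00, a call lost under 1 scaling. Of 9 auxiliary potassium subunits compared, 8 had a ratio below 1, at a median log2 ratio of -0.55, with Kcne1 above 1. Only Kcnip1 and Kcnip2 of these 8 had an interval that excluded 1, and 7329 of all 14053 genes compared had a ratio below 1. The 6 members with at least 100 reads in each library lay between 0.944 (Cacna2d1) and 1.10 (Kcnh2), each with an interval that included 1. Hcn4, at 0.687 and 0.533 RPKM, was not called.

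**Figure D4:**
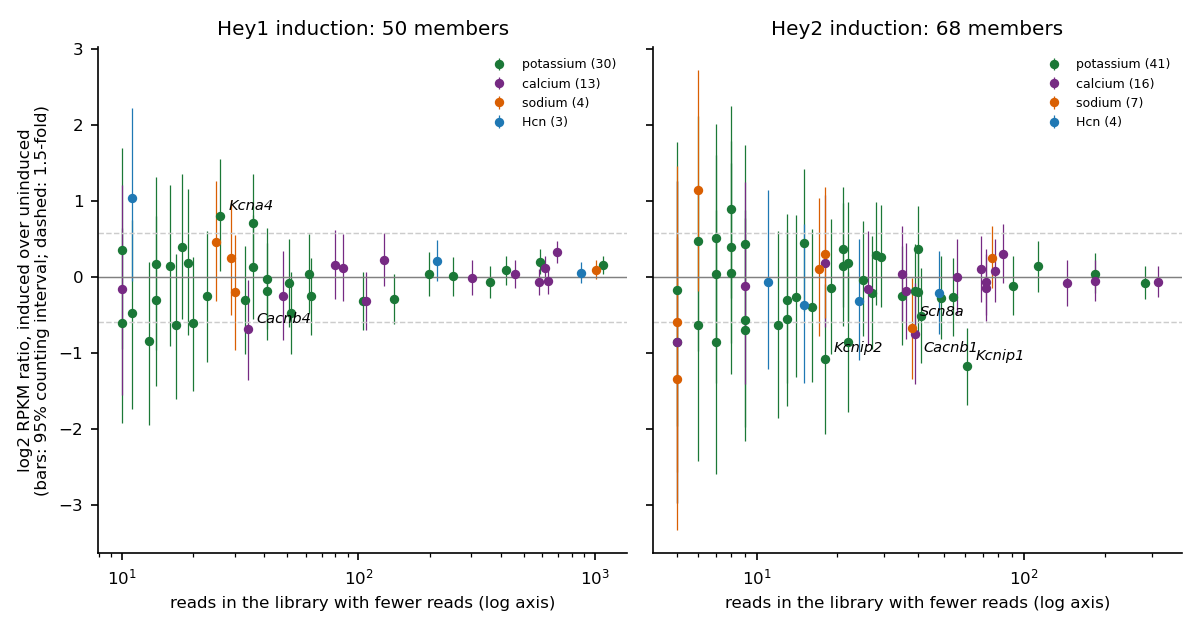
Log2 RPKM ratio of induced over uninduced for the 50 (Hey1) and 68 (Hey2) members listed in both libraries, against reads in the library with fewer reads (log axis), with 95% counting intervals, colored by class; dashed lines mark 1.5-fold. Members with many reads lie near 0, and the named members are past the rule.

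Of the 43 members with both induction ratios, 10 were above 1 in both lines, 13 below 1 in both and 20 on opposite sides. None passed the rule in both inductions. Among channel partners outside these families, 8 of 18 (such as Ank3 and Cav3) were lower and 1 was higher in the uninduced Hey2 line, and 7 of 19 were lower and 2 higher in the induced line. Of 13 other ion-transport genes, among them Ryr2 and Atp2a2, 9 were lower and 2 higher in each comparison. Of the comparable pacemaker and conduction transcription factors, 8 of 10 were lower and 1 higher uninduced, and 11 of 13 lower and 1 higher induced. By the same rule, 16.1% of all genes were lower and 26.1% higher uninduced, and 16.6% and 28.3% induced. In the inductions, Fgf12, a sodium channel partner, was the 1 gene of these lists past the rule, at 0.450 and 0.213 RPKM in the Hey1 line.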

How the data were processed

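RPKM values were deposited by the authors, per the file headers, with 1 column per library, and a signed fold per line is a score the authors computed as the ratio of the RPKM of induced and uninduced cells (25970 of 25970 agreed). The submitters' processing notes name mm9, Bowtie 1.0, MACS 1.4.1 and DESeq, the last with no version stated. No source used here gives the annotation, counter, strand handling or treatment of multiply matching reads, so overlapping, antisense or near-identical genes are uncertain.

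Whole reads were recovered for 15371 of 15371 genes (100%) from the steps of the values, at a whole-base length; the recovery and ratio steps were tested on simulated data. Members and lists were chosen with earlier results of these data known. Named genes were the heart channel list, members of at least 5 RPKM, up to 8 past the size rule per direction, and those listed in 1 line only at 1 RPKM or more. Alternatives were another pseudocount, scaling, low-value filter, blank handling, size rule and length trend. Some genes met this rule but are not reported here. The 8 chromatin immunoprecipitation samples were not analysed here. Steps ran in Python 3.11.15, NumPy 2.4.6, pandas 2.3.3 and SciPy 1.17.1, with plots in Matplotlib 3.10.9.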

Additional observations from a re-analysis of the deposited data

How the results depend on the processing

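Of 80 alternative counts, 62 stayed within 1.5 times the reported count and 18 did not. Of 36 alternative medians of log2 ratios, 26 kept their sign and stayed within 1.5 times, 9 kept their sign and moved further, and 1 changed sign. The Hey1 induction median of 0.03 changed sign to -0.0123 with blanks at the floor, and was 0.117 with median ratio scaling, 0.0924 with upper quartile scaling and 0.0144 with the length trend removed. The Hey2 induction median of -0.11 was -0.0624 with log2(RPKM + 1), -0.0735 at 20 reads or more and -0.0592 for means of 1 RPKM or more. The median of the uninduced lines, -0.53, was -0.25 with log2(RPKM + 1) and -0.89 at 20 reads or more, and that of the induced lines, -0.72, was -0.40 with log2(RPKM + 1). For Hey1 induction the 2 members higher became 0 with log2(RPKM + 1) and 1 with a mean of at least 1 RPKM, and the 1 lower became 0 with log2(RPKM + 1), with median ratio scaling, with upper quartile scaling and with that mean, and 5 by fold alone. For Hey2 induction 2 of 68 were higher by fold alone (3.86%). The 4 lower became 1 with log2(RPKM + 1) (0.769%) and 13 by fold alone (6.11%). Between the uninduced lines the 8 higher became 3 with log2(RPKM + 1) (18.8%) and 5 under both scalings (20.5% and 21.3%). At 20 reads or more, 2 of 25 members were higher (25.5%). Between the induced lines the 5 higher became 3 with log2(RPKM + 1) (21.1%). At 20 reads or more, 2 of 33 were higher (26.7%), and with blanks at the floor 11 of 97 (27.4%). The 21 lower became 13 with log2(RPKM + 1) (11.6%). The cause was not tested. No paired analysis was possible because each group had 1 library. Depth limits members under 1 RPKM, and low members rest on few reads.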

Other observations

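By class, CACGCG was in 25% of the 24 promoter windows of calcium channel genes (6 windows), in 4.76% of the 63 of potassium channel genes and in 0 of the 10 of sodium channel genes. Over all windows the share with CACGCG was 9.27%. CACGTG was in 4 windows, all of potassium channel genes (6.35% of theirs), against 7.15% of all windows. The median share of G and C was 62.8% for calcium, 59.7% for potassium and 52.5% for sodium windows, against 52.7% over all windows. These are descriptions of RefSeq letters at unequal window numbers. Across all genes compared, the Spearman rho of gene length with the Hey2 induction ratio was 0.172, and across the members it was 0.0735. With the ratio of the uninduced lines, rho was 0.0773 across all genes and -0.388 across the members. With the ratio of the induced lines it was 0.112 and -0.394. Genes are not independent replicates, and the cause was not tested.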
